A study of Mus musculus with 8 samples.

Results

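A group of 10 genes was followed through all 8 macrophage libraries: Kif21a, Dennd3, Slc45a4, Kifc2, Maff, Csnk1e, Bop1, Tomm22 and Rpl3, which lie on chromosome 15 within 10 Mb of Mkl1, and Rpl3-ps1, a processed pseudogene of Rpl3 on the X chromosome. They are 10 of 53735 rows in the count tables, and all 10 were among the 14418 genes that passed the filter on low counts. They were chosen by their measured values, because they differed between genotypes in these same libraries, or, for Rpl3, because of its pseudogene, so their genotype differences are given here as a description and support nothing. The genes of the group nearest to the threshold from inside were Dennd3 and Maff, with adjusted p of 0.0227 and 0.0271 (edgeR quasi-likelihood test, Benjamini-Hochberg adjustment, threshold 0.05). Within 10 Mb of Mkl1, the first genes that missed the threshold were Adsl and Them6, at 0.0501 and 0.0549, and 16 further genes passed it without being part of the group. RNA-seq was carried out on macrophages differentiated in culture for 7 days from the bone marrow of 6-month-old male mice that had received angiotensin II (Ang II) from osmotic minipumps for 7 days. WT libraries (1 to 4) came from Mkl1+/+, Apoe-/- mice and KO libraries (5 to 8) from Mkl1-/-, Apoe-/- mice, so that both genotypes lack Apoe and both received Ang II. Experiment 1 held WT libraries 1 and 2 with KO libraries 5 and 6, and experiment 2 held WT libraries 3 and 4 with KO libraries 7 and 8. The sources used here do not say whether each library was made from a separate mouse, so p-values measure only the spread between these libraries. The knockout is global, the mice are described as of C57BL/6J background, and WT controls came from littermates or sibling matings.

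MKL1 (also called MRTF-A, gene symbol Mrtfa) is a transcriptional coactivator that is held by monomeric actin, moves to the nucleus when actin polymerises, and switches on genes with the serum response factor SRF through a sequence called the CArG box. A gene that lies close to a targeted gene on its chromosome is inherited together with it, so knockout mice can carry the flanking segment of the strain in which the gene was targeted. A processed pseudogene is a copy of a spliced messenger RNA inserted elsewhere in the genome, and short reads from a gene and its copy can be assigned to one or the other only where their sequences differ. Every KO library carries both the deletion and whatever is linked to it, so the design cannot tell apart a linked segment from loss of MKL1 for these genes.

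Rpl3 encodes a protein of the large ribosomal subunit, and the sequences shared with its pseudogene are shown first because they bear on how the counts can be read. In the GENCODE annotation of GRCm38, Rpl3 lies at chr15:80077791-80091868 on the minus strand and its main transcript has 10 exons and 1351 bases. Rpl3-ps1 lies at chrX:13202571-13203780 on the plus strand as 1 exon of 1210 bases. The whole pseudogene aligned to bases 80 to 1289 of the transcript with 1208 identical bases, 2 mismatches and no gap, an identity of 99.8%. Counted from the first base of the Rpl3 transcript, the mismatches are C137A, at position 80082529 of chromosome 15 in exon 2 (13202628 on X), and T866C, at position 80079753 of chromosome 15 in exon 6 (13203357 on X). Each is the third base of a codon, 19 and 262, and neither alters the amino acid, so the pseudogene keeps the same 403 codons without a stop. The stretches below run 25 bases to either side of each mismatch, 5′ to 3′ along the transcript, with the differing base in capitals.
Rpl3 at base 137: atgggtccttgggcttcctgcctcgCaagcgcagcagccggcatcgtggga
Rpl3-ps1 at base 58: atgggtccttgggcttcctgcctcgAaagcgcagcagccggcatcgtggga
Rpl3 at base 866: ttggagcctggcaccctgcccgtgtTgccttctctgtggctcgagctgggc
Rpl3-ps1 at base 787: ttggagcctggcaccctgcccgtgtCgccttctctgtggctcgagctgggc
Of the 1161 windows of 50 bases in the pseudogene, 1061 (91.4%) are also found in Rpl3 and 100 are not. With windows of 100 bases, 158 of 1111 are not found in Rpl3. The length of the reads and the treatment of reads that map to several places are not given in the sources used here.

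The libraries held 33977799 to 41584540 counts. Of the 8 macrophage markers, all were tested and 1, Mertk, was past the threshold, and their summed level was 15235 to 36019 CPM (counts scaled to a common library size) in WT and 18201 to 25292 CPM in KO. The summed markers of lymphocytes reached at most 0.115 CPM, with Cd3e listed at 0, and those of neutrophils at most 1.50 CPM. Dendritic cell markers summed to 3.88, 3.08, 32.2 and 47.5 CPM across WT libraries 1 to 4 and to 19.9, 29.8, 2.05 and 1.63 CPM across KO libraries 5 to 8. The swing was that of Itgax, which ran from 0.935 to 46.7 CPM, while Flt3, Zbtb46, Xcr1 and Cd209a were each at most 0.658 CPM in every library. Fibroblast markers summed to 4.06 to 11.1 CPM in WT, to 162 and 216 CPM in KO libraries 5 and 6, and to 10.6 and 1.68 CPM in KO libraries 7 and 8. Neither of these lists separated the genotypes: both differed between experiments within a genotype. The macrophage markers did too, with an interaction of genotype and experiment past the threshold for 5 of 8. Adgre1 (F4/80) was at 8328 and 7102 CPM in WT against 1929 and 1669 CPM in KO in experiment 1, and at 2678 and 2720 CPM in WT against 4874 and 5264 CPM in KO in experiment 2. In bulk RNA, fewer cells of a type and less RNA per cell cannot be told apart.

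Mkl1 itself (chr15:81012281-81190757, minus strand) was at 25.6 and 27.1 CPM in the WT libraries of experiment 1 and at 26.8 and 29.6 CPM in those of experiment 2. The KO libraries had 19.5 and 20.9 CPM in experiment 1 and 14.6 and 10.4 CPM in experiment 2. WT and KO did not overlap (exact permutation test, two-sided, over 70 arrangements, p = 0.0286, and p = 0.0556 with exchanges only within an experiment, the smallest values these designs allow). The log2 fold change was -0.78 (SE 0.19, adjusted p = 0.0574, edgeR), and reads on the gene were present in every KO library. Gene-level counts do not show which exons the remaining reads cover.

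Of the 10 genes, 9 were past the threshold in the contrast of KO with WT, 6 higher and 3 lower, where 7.12% of all genes tested were (3.72% higher and 3.41% lower). For the same 9 genes the 4 KO libraries did not overlap the 4 WT libraries, as was the case for 12.7% of all genes tested (6.46% higher and 6.25% lower in KO), and none of the 9 overlapped within either experiment (23.0% of genes were apart in the same direction within both). These shares are given for scale only, since this contrast picked the genes. The count was 5 without WT library 1 or KO library 5, and 2 (Kif21a and Rpl3-ps1) when the fit had no experiment term. Shares of all genes in those fits are not given here.

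**Figure D1:**
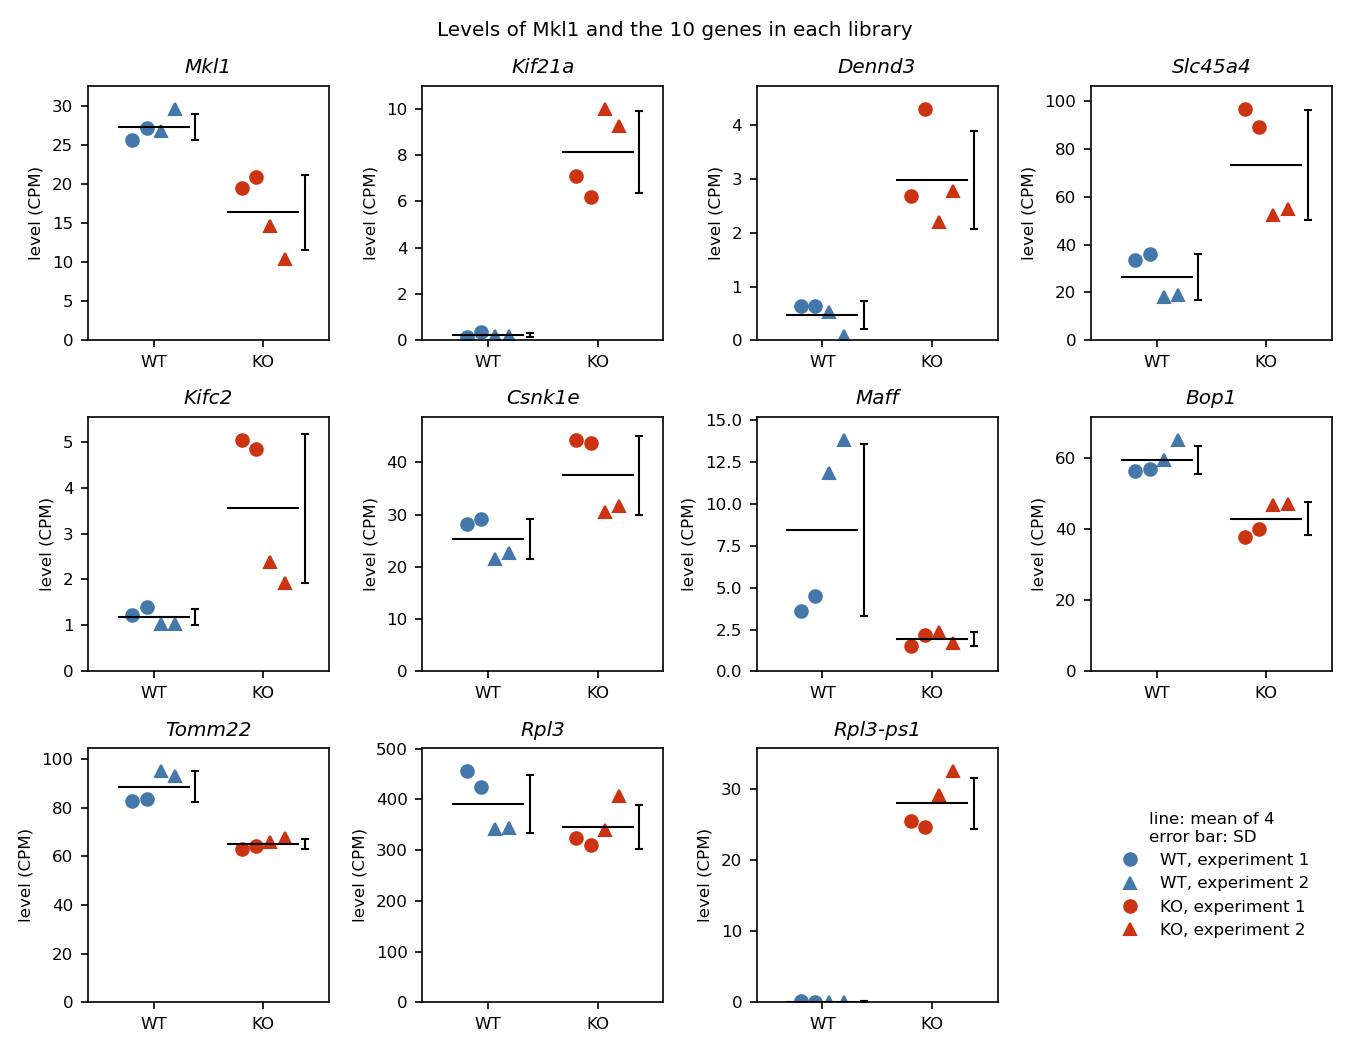
Level of Mkl1 and of each of the 10 genes in every library, in CPM on a linear axis that starts at 0 (circles, experiment 1; triangles, experiment 2; blue, WT; red, KO; line, mean of 4 libraries; bar, SD). Apart from Rpl3, WT and KO points do not overlap in any panel, and Kif21a and Rpl3-ps1 are close to 0 in all 4 WT libraries.

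Among the motor proteins, Kif21a encodes a plus-end kinesin that restrains microtubule growth at the cell cortex. It lies at chr15:90933276-91049948 on the minus strand, 9.74 Mb from Mkl1, the farthest of the 9. WT libraries 1 to 4 held 6, 12, 7 and 7 counts (0.148, 0.352, 0.192 and 0.201 CPM), and KO libraries 5 to 8 held 263, 247, 409 and 385 counts (7.11, 6.17, 9.98 and 9.23 CPM). The transcript was thus barely detected in WT and readily detected in every KO library. The ratio of KO to WT counts after scaling for depth was 27.5 in experiment 1 (95% exact interval 17.2 to 46.8, counting error only) and 48.9 in experiment 2 (29.0 to 89.8). The fitted log2 fold change of 5.15 (SE 0.32) was the largest of the 211 genes tested within 10 Mb of Mkl1 and ranked 8 among all 14418.

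Kifc2 encodes a minus-end kinesin of the C-terminal motor group, known mainly from neurons, and lies at chr15:76659858-76668196 on the plus strand, 4.34 Mb from Mkl1. Its levels were 1.23, 1.41, 1.04 and 1.04 CPM across WT libraries 1 to 4 and 5.03, 4.85, 2.39 and 1.92 CPM across KO libraries 5 to 8. All KO libraries lay above all WT libraries, with the KO libraries of experiment 1 highest. The log2 fold change was 1.48 (SE 0.23). Its adjusted p was 0.0144 with all libraries and exceeded 0.05 when WT library 1 or 2 or KO library 5 or 6 was left out, and in experiment 2 alone (0.0648). The KO libraries in which Kifc2 was highest were also those with 162 and 216 CPM of fibroblast markers, whose part in the result was not tested. In experiment 2, where fibroblast markers were at most 11.1 CPM in every library, the log2 fold change was 1.05.

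Dennd3 and Slc45a4 are neighbours, 5.18 kb apart, at chr15:73512560-73572242 (plus strand) and chr15:73577424-73645762 (minus strand), 7.44 and 7.37 Mb from Mkl1. Dennd3 encodes a DENN domain exchange factor that activates the small GTPase Rab12 in membrane traffic and autophagy. It had 26, 22, 19 and 3 counts (0.639, 0.645, 0.521 and 0.0863 CPM) for WT libraries 1 to 4 and 99, 172, 90 and 116 counts (2.68, 4.30, 2.20 and 2.78 CPM) in KO libraries 5 to 8. The highest WT library was below the lowest KO library, and WT library 4 was far below the other WT libraries. The scaled count ratio was 5.48 in experiment 1 (4.02 to 7.62) and 8.07 in experiment 2 (5.19 to 13.2), and the log2 fold change was 2.71 (SE 0.48, adjusted p = 0.0227, edgeR). That call did not hold without WT library 1 or 2 or KO library 5, 6 or 7, with adjusted p of up to 0.143 over all alternatives tried.

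Slc45a4, a member of the SLC45 family of solute carriers, was measured at 33.5, 36.2, 18.0 and 18.7 CPM across WT libraries 1 to 4 and at 96.5, 89.0, 52.2 and 54.8 CPM across KO libraries 5 to 8. Levels in experiment 1 were higher than in experiment 2 in both genotypes, and even the lowest KO library exceeded the highest WT library. The log2 fold change was 1.48 (SE 0.07), with 1.40 in experiment 1 and 1.54 in experiment 2. On either side of the pair, the next tested genes were not past the threshold. Ptk2 had a log2 fold change of 0.24 (adjusted p = 0.563, edgeR), with -0.18 in experiment 1 and 0.65 in experiment 2. Ptp4a3 had -0.80 (adjusted p = 0.109, edgeR), with -1.37 in experiment 1 and -0.25 in experiment 2.

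Csnk1e encodes casein kinase 1 epsilon, which phosphorylates PERIOD proteins of the circadian clock and acts in Wnt signalling. It lies at chr15:79417856-79455566 on the minus strand, 1.56 Mb from Mkl1. Levels were 28.1, 29.1, 21.4 and 22.7 CPM across WT libraries 1 to 4 and 44.2, 43.7, 30.4 and 31.6 CPM across KO libraries 5 to 8. The KO libraries of experiment 2 lay only just above the highest WT library, and within each experiment the genotypes were well apart. The log2 fold change was 0.56 (SE 0.07).

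Maff encodes a small MAF protein, which lacks an activation domain of its own and pairs with CNC factors such as NRF2 on antioxidant response elements. It lies at chr15:79346621-79359076 on the plus strand, 1.65 Mb from Mkl1 and close to Csnk1e. In WT libraries 1 to 4 it was at 3.61, 4.52, 11.8 and 13.8 CPM, and in KO libraries 5 to 8 at 1.49, 2.20, 2.34 and 1.70 CPM. WT libraries of experiment 2 stood well above those of experiment 1, whereas the 4 KO libraries were close together. The log2 fold change was -1.91 (SE 0.36, adjusted p = 0.0271, edgeR), and the call was lost when any 1 of the 4 WT libraries, KO library 5 or KO library 7 was left out. It was past the threshold in each experiment alone, with -1.14 (SE 0.24) in experiment 1 and -2.66 (SE 0.23) in experiment 2. Itgax, the dendritic cell marker that carries this swing, was at 30.9 and 46.7 CPM in the WT libraries with the most Maff and at 19.2 and 29.3 CPM in KO libraries 5 and 6, and its part in the result was not tested.

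Bop1 and Tomm22 were the housekeeping genes of the group that were lower in KO. Bop1 encodes a subunit of the PeBoW complex, which processes the precursor RNA of the large ribosomal subunit, and lies at chr15:76452989-76477277 on the minus strand, 4.54 Mb from Mkl1. Its levels were 56.4, 56.7, 59.4 and 65.0 CPM across WT libraries 1 to 4 and 37.8, 40.1, 46.7 and 47.0 CPM across KO libraries 5 to 8. Every KO library was below every WT library. The log2 fold change was -0.47 (SE 0.07, adjusted p = 0.0118, edgeR), and the adjusted p exceeded 0.05 without WT library 1, KO library 5 or KO library 7 and in experiment 2 alone (0.0566).

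Tomm22 encodes the central receptor of the translocase of the outer mitochondrial membrane, through which precursor proteins enter mitochondria. It lies at chr15:79670861-79673400 on the plus strand, 1.34 Mb from Mkl1. Levels were 82.8, 83.7, 95.0 and 93.2 CPM across WT libraries 1 to 4 and 63.1, 64.2, 65.8 and 67.6 CPM across KO libraries 5 to 8. The KO libraries were tightly grouped below all WT libraries, and the log2 fold change was -0.44 (SE 0.06).

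Rpl3 was the one gene of the group without a difference past the threshold over both experiments. WT libraries 1 to 4 had 456, 424, 342 and 344 CPM and KO libraries 5 to 8 had 325, 310, 341 and 407 CPM. KO was below WT in experiment 1, by -0.48 on the log2 scale (SE 0.07), and overlapped WT in experiment 2, where the difference was 0.12 (SE 0.14). Over both experiments it was -0.17 (SE 0.14, adjusted p = 0.503, edgeR). For the list of large subunit ribosomal proteins, the median over 46 genes was -0.46 in experiment 1 and 0.36 in experiment 2.

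Rpl3-ps1 was near 0 in WT and clearly present in every KO library. It had 10, 1, 3 and 1 counts in WT libraries 1 to 4 and 943, 989, 1199 and 1357 counts in KO libraries 5 to 8, which is at most 0.246 CPM in WT and 25.5, 24.7, 29.3 and 32.5 CPM in KO. The scaled count ratio was 171 in experiment 1 (95% exact interval 95.1 to 342) and 551 in experiment 2 (215 to 2023), where WT held only 4 counts in all. The fitted log2 fold change of 8.07 (SE 0.53) ranked 2 among all genes tested, and ran from 7.75 to 9.19 with 1 library left out, with the highest value without WT library 1. As a share of the counts on Rpl3 and Rpl3-ps1 together, the pseudogene took 0.0539%, 0.00692%, 0.0240% and 0.00836% in WT libraries 1 to 4 and 7.29%, 7.39%, 7.91% and 7.40% in KO libraries 5 to 8. The 95% Wilson interval was 6.85% to 7.75% for the lowest KO library and 7.49% to 8.35% for the highest, and the KO mean was 7.50% ± 0.28 (SD, n = 4). The share was nearly constant among KO libraries, in which Rpl3 itself went from 310 to 407 CPM. When the counts of both were summed, a measure added after the data were seen, WT had 392 ± 57.3 CPM and KO had 374 ± 46.3 CPM (SD, n = 4). The sum was lower in KO in experiment 1 (456 and 424 CPM in WT against 350 and 335 CPM) and higher in KO in experiment 2 (343 and 344 CPM in WT against 370 and 440 CPM), a difference not tested on the sum.

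**Figure D2:**
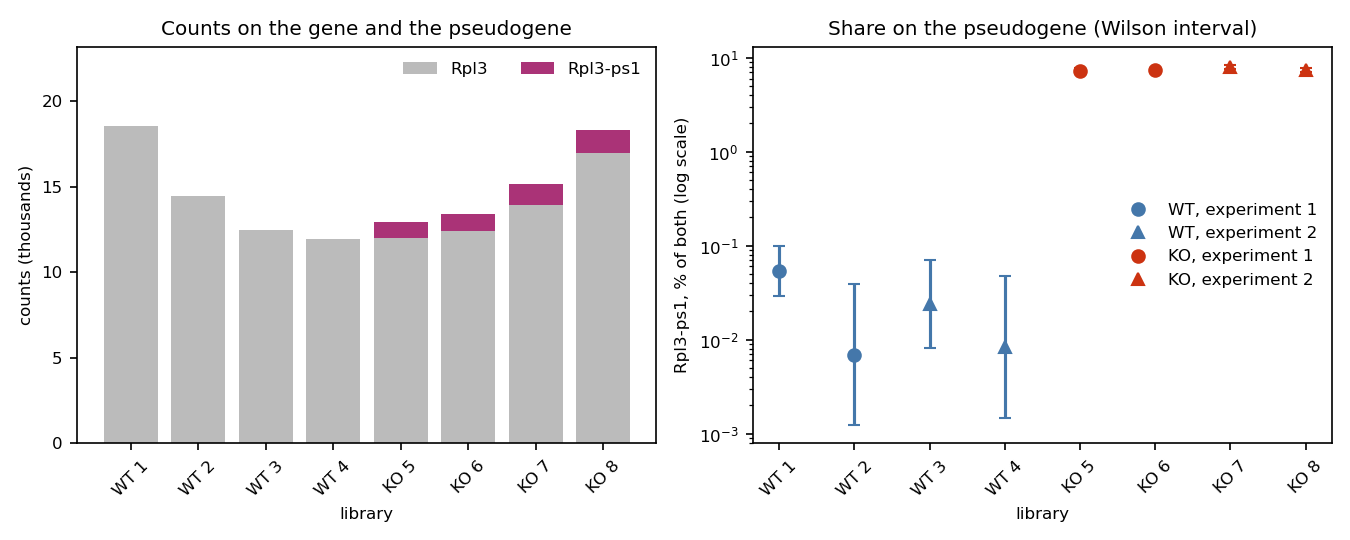
Left, counts on Rpl3 (grey) and Rpl3-ps1 (purple) in each library, stacked. Right, Rpl3-ps1 as a percentage of the counts on both, on a log axis with 95% Wilson intervals: the 4 WT libraries lie between 0.00692% and 0.0539% and the 4 KO libraries between 7.29% and 7.91%.

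Of 241 ribosomal protein pseudogenes in the tables, 12 besides Rpl3-ps1 passed the filter and none of the 12 was past the threshold in edgeR, DESeq2 or limma-voom, nor at an unadjusted p under 0.05 (0 of 12 in each). Those with the smallest p were Rps10-ps2, with a log2 fold change of 0.68 (SE 0.38, adjusted p = 0.321), and Rps19-ps3, with 0.29 (SE 0.26, adjusted p = 0.547, edgeR). A second copy of Rpl3 on X, Rpl3-ps2, aligned with 10 mismatches and 4 gap bases (99.2% identity) and had 12 counts over all 8 libraries.

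To compare levels between genes, CPM was divided by the length of all annotated exons of a gene in kilobases, which for Rpl3 is 3175 bases against 1351 in its main transcript, so its values are low estimates. Rpl3 was nonetheless highest in WT with 123 ± 18.0 CPM per kilobase (SD, n = 4). It was followed by Tomm22 with 53.7 ± 3.82 and Bop1 with 20.1 ± 1.34. Csnk1e, Maff and Slc45a4, at 3.84 ± 0.583, 3.26 ± 1.98 and 3.14 ± 1.13, did not differ beyond their spread. Kifc2 followed at 0.300 ± 0.0452, and Dennd3 (0.0828 ± 0.0463), Rpl3-ps1 (0.0798 ± 0.0848) and Kif21a (0.0345 ± 0.0138) were lowest. In KO the order began Rpl3 (109 ± 13.5), Tomm22 (39.5 ± 1.19), Rpl3-ps1 (23.1 ± 2.99) and Bop1 (14.5 ± 1.57). The value of Rpl3-ps1 is not strictly on this scale, since most of its sequence is shared with Rpl3 and only part of its length can hold reads of its own. Kif21a, at 1.25 ± 0.275 per kilobase, moved from last to the same range as Kifc2 (0.902 ± 0.412).

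The 9 genes on chromosome 15 lie among 211 tested genes within 10 Mb of Mkl1, of which 24 (11.4%) were past the threshold in the genotype contrast, 17 higher and 7 lower. The share was 16 of 155 within 5 Mb and 8 of 56 between 5 and 10 Mb. Farther out on the same chromosome it was 7 of 86 between 10 and 20 Mb and 20 of 158 (12.7%) beyond 20 Mb, and on all other chromosomes 901 of 11499 (7.84%). The number within 10 Mb was 10 to 26 with 1 library left out, 45 with DESeq2 and 74 as the mean genotype effect in a fit of 4 groups. No share of all genes in those settings is given here, so these numbers do not set the region apart. By size of the log2 fold change within the window, Kif21a, Dennd3 and Maff ranked 1, 2 and 3, Kifc2 and Slc45a4 7 and 8, and Csnk1e, Bop1 and Tomm22 39, 49 and 53.

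**Figure D3:**
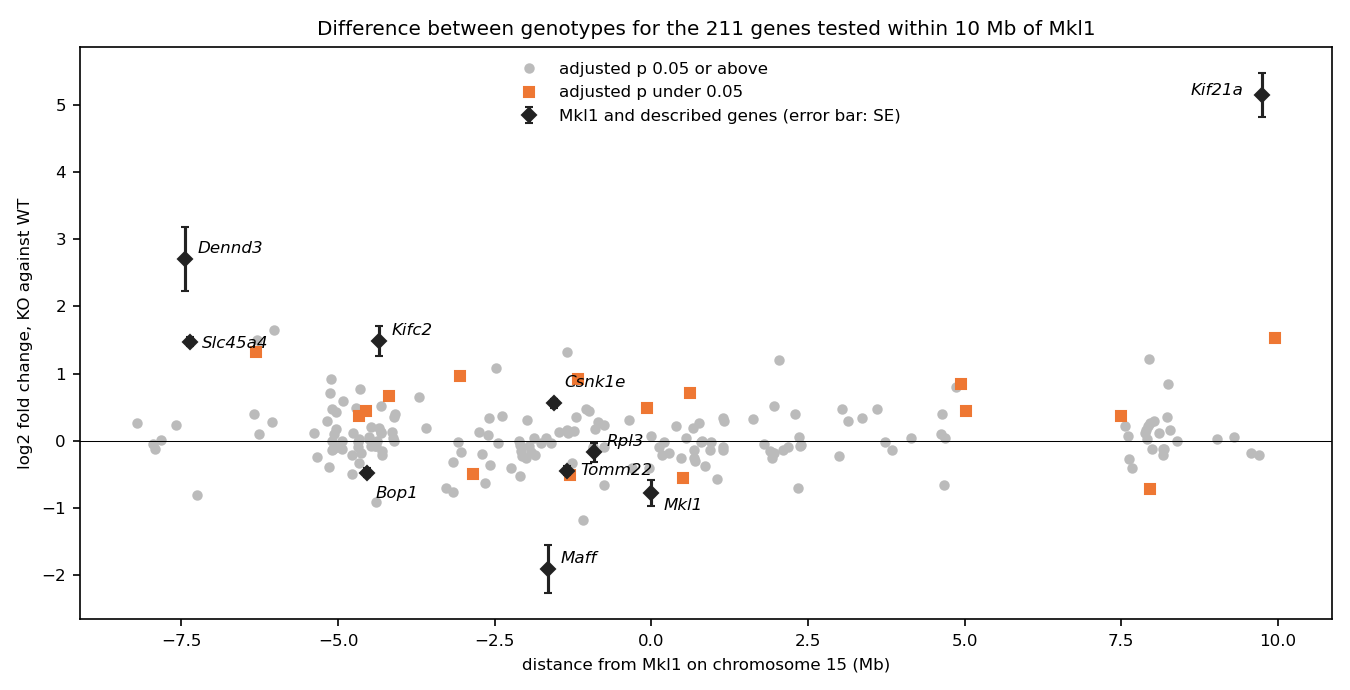
Log2 fold change of KO against WT for the 211 genes tested within 10 Mb of Mkl1, against distance from Mkl1 in Mb (grey circles, not past the threshold; orange squares, past it; black diamonds, Mkl1 and the described genes with SE). Kif21a, at 5.15, stands far above the rest near the right edge, Dennd3 and Slc45a4 lie together near the left end, and most genes in between lie near 0.

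Besides the described genes, 16 genes of the window were past the threshold, 12 higher and 4 lower in KO. The higher ones were, in order along the chromosome, Jrk, Maf1, Mroh1, Arhgap39, Foxred2, Cbx6, Tnrc6b, Tef, Cerk, Tbc1d22a, Brd1 and Abcd2, and the lower ones Ift27, Gtpbp1, Rangap1 and Mapk11. Abcd2, a peroxisomal transporter of very long chain fatty acids, had the largest difference, at 13.8 ± 5.90 CPM in KO against 4.76 ± 1.95 CPM in WT (SD, n = 4, log2 fold change 1.53, SE 0.13, adjusted p = 0.00258, edgeR). It is the next tested gene beyond Kif21a, 95.9 kb away, and both were higher. Cbx6, a Polycomb chromobox protein gene 1.18 Mb from Mkl1, was at 15.9 ± 1.74 CPM in WT against 30.3 ± 4.36 CPM in KO. Mapk11, which encodes the beta isoform of p38 MAP kinase, was at 9.03 ± 1.77 CPM in WT and 5.49 ± 0.769 CPM in KO. Tnrc6b, an Argonaute partner in microRNA silencing and the closest of all at 0.0712 Mb, was at 65.2 ± 8.52 CPM in WT and 92.1 ± 15.7 CPM in KO.

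Of the 15 tested genes next to the described genes that are not themselves described, 2 (13.3%) were past the threshold in the genotype contrast, Abcd2 next to Kif21a and Mroh1 next to Bop1, a share close to the 11.4% of the window. Mroh1 overlaps Bop1 by 50 bases on the opposite strand and went the other way, with a log2 fold change of 0.44 (SE 0.07, adjusted p = 0.0142, edgeR), and Hsf1, 0.145 kb to the other side of Bop1, had 0.06 (adjusted p = 0.747). Tmem184b, which lies between Maff and Csnk1e, had -0.03 (adjusted p = 0.930), while its flanking genes differed in opposite directions. Its difference was 0.24 in experiment 1 (adjusted p = 0.0154) and -0.32 in experiment 2 (adjusted p = 0.332), with an interaction adjusted p of 0.0904 (edgeR). For Tomm22, the neighbours Cby1 and Josd1 had 0.16 and 0.12 (adjusted p of 0.674 and 0.677), but their differences were of opposite sign in the experiments, 0.60 and -0.29 for Cby1 and -0.25 and 0.47 for Josd1 (interaction adjusted p of 0.00532 and 0.00231, edgeR). At Kifc2, Cyhr1 overlaps the start of the gene by 260 bases on the opposite strand and had 0.19 (adjusted p = 0.130), with every KO library above every WT library (58.6 to 63.4 CPM against 48.8 to 58.3 CPM). Ppp1r16a had 0.11 (adjusted p = 0.662), with 0.40 in experiment 1 and -0.18 in experiment 2 (interaction adjusted p = 0.0135, edgeR). Around the remaining genes, Tcea1-ps1, Pdgfb, Snord83b, Pla2g6 and Ddx17 were between -0.21 and 0.44, with none past the threshold. Whether the counting used strand is not given in the sources used here, so reads from the overlapped ends of Bop1, Kifc2 and Rpl3 may be shared with Mroh1, Cyhr1 and Syngr1.

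In experiment 1 alone all 10 genes were past the threshold (55.1% of all genes tested), and in experiment 2 alone 7 were (15.8%). The choice of genes did not use the contrasts between experiments directly, though it bears on the interaction. The genotype difference itself differed between experiments for 2 of the 10 genes (interaction, adjusted p under 0.05 in edgeR), where 41.6% of all genes tested did. The choice favours genes with a small interaction, because the fit across both experiments counts it as spread. Maff was one, with an interaction of -1.53 (SE 0.35, adjusted p = 0.0121), the difference being greater in experiment 2. Rpl3 was the other, at 0.59 (SE 0.15, adjusted p = 0.0165), and is among the 39 of 46 large subunit ribosomal proteins that passed. Without WT library 1 or KO library 6 neither passed, with adjusted p of 0.0528 and 0.0513 for Maff and 0.0640 and 0.0697 for Rpl3. Kifc2 missed the threshold at -0.85 (SE 0.29, adjusted p = 0.0510). For Kif21a and Rpl3-ps1 the interaction was 0.83 (SE 0.50) and 1.63 (SE 0.90), neither past the threshold (adjusted p of 0.217 and 0.181), with very few WT counts behind each. Slc45a4, Csnk1e, Bop1 and Tomm22 had interactions between -0.13 and 0.13 with SE of at most 0.12.

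**Figure D4:**
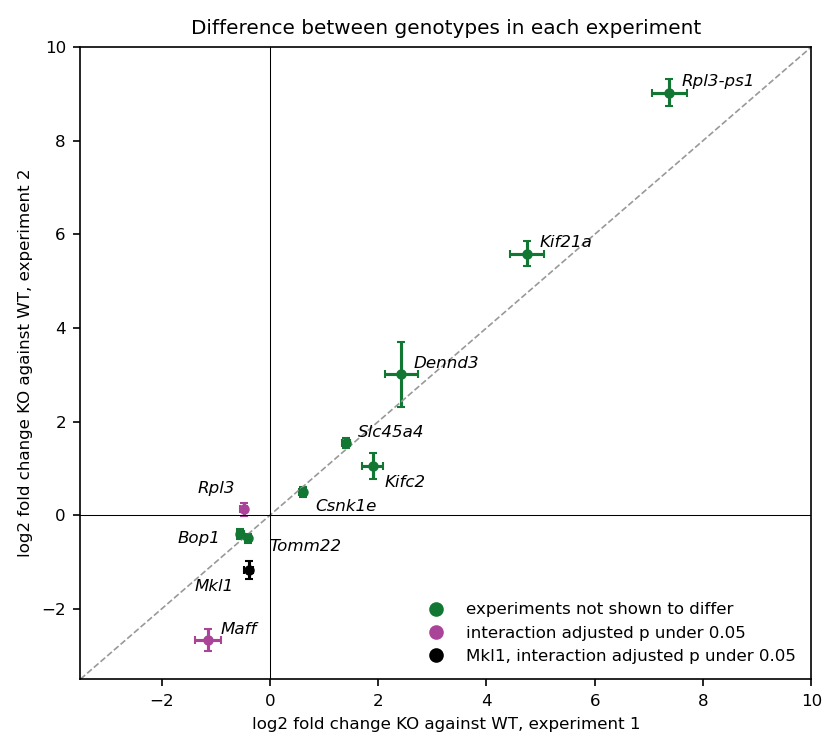
Log2 fold change of KO against WT in experiment 1 (horizontal) and experiment 2 (vertical) for Mkl1 and the 10 genes, with SE bars and a dashed line of equality. Rpl3 changes sign, from -0.48 to 0.12, Maff lies below the line (-1.14 and -2.66), and the other genes keep their sign.

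Within a genotype, 4 of the 10 genes differed between experiments in WT (31.1% of all genes tested) and 4 in KO (32.8%), shares close to those of all genes. Slc45a4 was lower in experiment 2 in both genotypes, by -0.92 (SE 0.08) in WT and -0.79 (SE 0.08) in KO on the log2 scale, and Csnk1e likewise, by -0.38 (SE 0.08) and -0.50 (SE 0.08). In WT alone, Maff was higher in experiment 2 by 1.66 (SE 0.24, adjusted p = 0.00272, edgeR) and Rpl3 lower by -0.36 (SE 0.11, adjusted p = 0.0380). In KO alone, Kifc2 was lower by -1.20 (SE 0.20, adjusted p = 0.00489) and Bop1 higher by 0.27 (SE 0.08, adjusted p = 0.0344). For Kif21a, Rpl3-ps1, Dennd3 and Tomm22, no difference between experiments was past the threshold in either genotype.

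Related genes elsewhere in the genome were counted by family and pathway. Lists that hold described genes, which this contrast picked, are also counted without them. Of all genes tested, 7.12% were past the threshold, 3.72% higher and 3.41% lower. Of 34 kinesins tested, 6 were past the threshold and all 6 were higher in KO: beside Kif21a and Kifc2 these were Kif21b, the paralogue of Kif21a on chromosome 1 (26.1 ± 7.76 CPM in WT, 61.8 ± 10.8 CPM in KO, log2 fold change 1.28, SE 0.13, adjusted p = 0.00439), Kif3a, a subunit of the ciliary transport motor (1.50, SE 0.23, adjusted p = 0.0144, edgeR), Kif1a and Kifc3. Without Kif21a and Kifc2, 4 of 32 kinesins were past the threshold. The median over the list was 0.04, near the 0.00 of all genes tested, with 0.33 in experiment 1 and -0.02 in experiment 2. Fibroblast markers were high in the KO libraries of experiment 1, and their part in this was not tested. Of 15 DENN domain genes with Rab12, 2 were past the threshold, both higher, Dennd3 and Dennd4c (0.73, SE 0.09, adjusted p = 0.0085). Without Dennd3, 1 of 14 was past the threshold. Of 2 SLC45 transporters tested, Slc45a4 alone was, and Slc45a3 had 1.55 (SE 0.44, adjusted p = 0.0836).

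Apart from Bop1 and Tomm22, which this contrast picked, the genes of ribosome assembly and mitochondrial import that were past the threshold were also lower in KO. Of 24 genes of 60S ribosome assembly, 6 were past the threshold and all 6 were lower: Bop1, Ebna1bp2, Rrs1, Mybbp1a, Nifk and Rpf2. Without Bop1 they were 5 of 23, where 3.41% of all genes tested were lower. Ebna1bp2, a nucleolar assembly factor, had a log2 fold change of -0.47 (SE 0.07, adjusted p = 0.0128) and Rrs1, which acts in 5S particle incorporation, of -0.94 (SE 0.16, adjusted p = 0.0211, edgeR). The median over the list was -0.47, with -0.81 in experiment 1 and -0.01 in experiment 2. Fibroblast markers were high in the KO libraries of experiment 1 (162 and 216 CPM) and at most 11.1 CPM elsewhere, and their part in this was not tested. Of 16 genes of mitochondrial protein import, 4 were past the threshold, all lower: Tomm22, Timm17a (-0.68, SE 0.08, adjusted p = 0.00749), Tomm40 (-0.48, SE 0.10, adjusted p = 0.0368) and Timm50. Without Tomm22 they were 3 of 15. The median over this list was -0.45 in experiment 1 and -0.12 in experiment 2, with the same fibroblast markers beside it. None of 46 large subunit ribosomal proteins was past the threshold in edgeR (1 at an unadjusted p under 0.05, and 1 past the threshold in DESeq2 and in limma-voom), the nearest being Rpl24 (-0.90, SE 0.21, adjusted p = 0.0501).

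Among 13 casein kinase 1 and clock genes, Csnk1e alone was past the threshold, and the next were Cry1 (-0.61, SE 0.18, adjusted p = 0.0935) and Csnk1g2 (0.33, SE 0.10, adjusted p = 0.102, edgeR). Bhlhe41, a clock repressor that is not on this list, had 0.71 (SE 0.10, adjusted p = 0.00966, edgeR). Established MRTF and SRF targets, which are no members of the group, had 10 of 29 past the threshold, all 10 lower. Itga5, an integrin that is itself on chromosome 15 but 22.2 Mb from Mkl1, had a log2 fold change of -1.11 (SE 0.08, adjusted p = 0.00136), and Wdr1, an actin disassembly factor, -0.77 (SE 0.08, adjusted p = 0.00465, edgeR). Leaving out 1 library gave 13 to 37 genes past the threshold over all these lists, with fewest without WT library 1 or KO library 5. Shares of all genes in those fits are not given here.

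**Figure D5:**
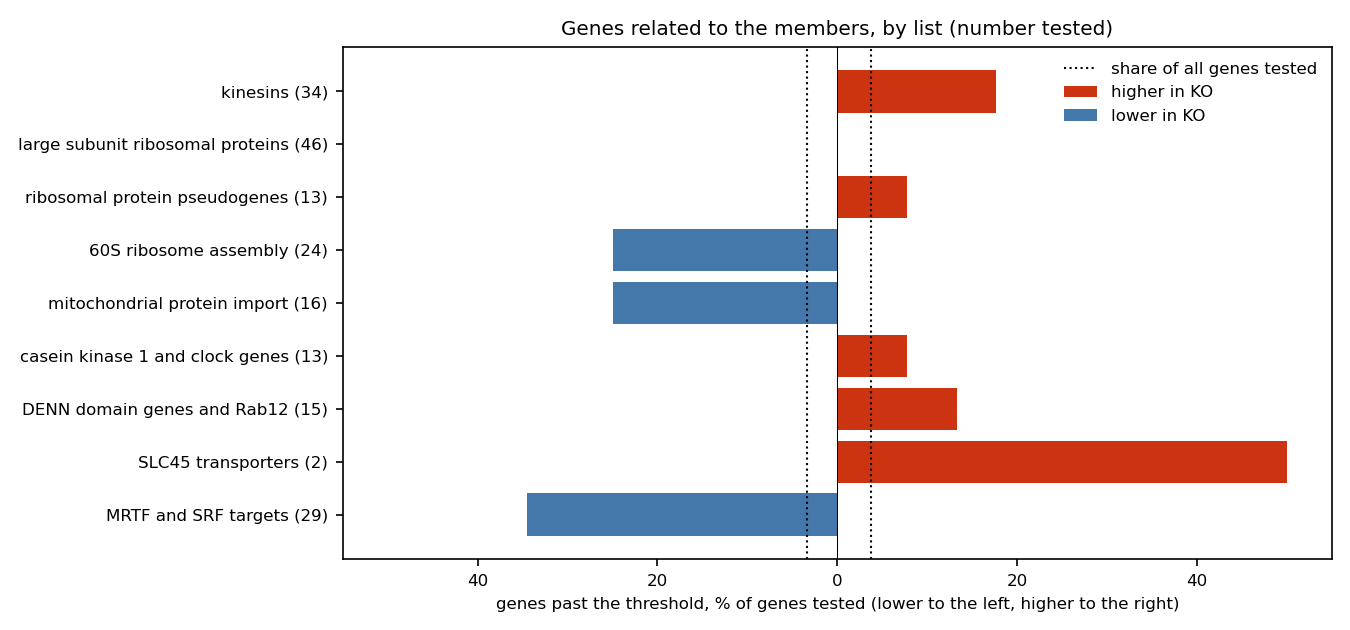
Percentage of the tested genes of each list that were past the threshold, higher in KO to the right (red) and lower to the left (blue), with the number tested in brackets; dotted lines mark the share of all genes tested, 3.72% higher and 3.41% lower. Kinesins lie to the right and ribosome assembly, mitochondrial import and MRTF and SRF targets to the left. The bar of the SLC45 transporters stands for 1 of 2 genes. Bars include the described genes, which this contrast picked. Without them the counts were 4 of 32 kinesins, 1 of 14 DENN domain genes, 5 of 23 assembly genes and 3 of 15 import genes. The bars of SLC45 transporters, casein kinase 1 and clock genes, and ribosomal protein pseudogenes consist of described genes only.

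The genes whose log2 CPM followed each described gene most closely over the 8 libraries were mostly on other chromosomes. The correlations are descriptive, since the points share the same libraries and the genes were picked for a genotype difference. For Kif21a they were Prm1 on chromosome 16 (Pearson r = 0.97), Rpl3-ps1 (r = 0.97) and Bhlhe41, a clock repressor on chromosome 6 (r = 0.96). For Rpl3-ps1 they were RP23-370A2.5 (r = 0.98), Myl12b, a myosin regulatory light chain gene (r = 0.98), and Prm1 (r = 0.98). Slc45a4 was closest to Slc37a2 (r = 1.00 after rounding), Csnk1e to Slit1 (r = 1.00), Kifc2 to Calcoco1 (r = 1.00), Maff to Cbfb (r = 0.99), Bop1 to Tuba1c (r = 0.99), Tomm22 to Mrpl46 (r = 0.99), Dennd3 to RP23-129P10.1 (r = 0.99) and Rpl3 to Tmem79 (r = 0.99). Calcoco1 and Tuba1c lie on chromosome 15, 21.5 and 17.8 Mb from Mkl1. Between Bop1 and Tomm22, levels ran together (r = 0.95), and both ran against Slc45a4 (r = -0.97 and -0.96).

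Promoter sequences, from 250 bases before to 50 bases after the transcription start in RefSeq on GRCm38.p6, were matched for Kif21a, Maff, Csnk1e and Tomm22, and 32851 promoters in all were searched on both strands. The CArG box, to which SRF binds, was present in 1.63% of all promoters and in none of the 9 windows of these 4 genes. The E-box CACGTG, bound by clock and MYC family factors, was present in 7.15% of promoters and among the 4 genes only in 1 of the 3 Maff windows, 191 bases before the start. The full palindromic MAF recognition element occurred in 0.00304% of promoters and in none of the 9 windows. These matches describe letters within short windows and say nothing about binding. The promoters of the genes with the largest change in either direction among the 4 are shown, with the E-box in capitals.
Kif21a, chr15:91049902-91050201, minus strand: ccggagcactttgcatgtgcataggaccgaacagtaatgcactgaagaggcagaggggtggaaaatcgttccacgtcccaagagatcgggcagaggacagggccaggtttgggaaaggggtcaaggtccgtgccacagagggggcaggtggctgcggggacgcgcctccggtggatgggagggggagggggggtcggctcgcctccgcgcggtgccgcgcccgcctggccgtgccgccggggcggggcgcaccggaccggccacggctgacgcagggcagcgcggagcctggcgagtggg
Maff, chr15:79347270-79347569, plus strand: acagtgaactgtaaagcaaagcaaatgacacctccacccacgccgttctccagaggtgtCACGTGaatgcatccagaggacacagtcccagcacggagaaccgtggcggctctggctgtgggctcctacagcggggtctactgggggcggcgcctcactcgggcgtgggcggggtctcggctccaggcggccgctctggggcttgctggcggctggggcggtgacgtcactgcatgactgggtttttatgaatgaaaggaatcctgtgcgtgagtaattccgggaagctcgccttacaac
The Kif21a window is rich in G and C, with 71.0% against a median of 52.7% over all promoters, and holds 30 CpG sites.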

How the data were processed

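Gene counts of 8 RNA-seq libraries (TruSeq Stranded mRNA kit) were used as deposited, in 1 table per experiment. Per the labels, the authors' processing notes name STAR 2.7.0f, Subread 1.6.4 with featureCounts, DESeq2 1.22.1 and GRCm38. The deposited normalised values (signal: counts divided by a size factor within an experiment) served only as a check of column identity. Annotation, strand and multimapping settings are not given in the sources used here. The 10 genes, the lists and the tests were chosen with earlier results of these data known.

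Libraries were fitted with edgeR 4.0.16 in R 4.3.3 (TMM, filterByExpr by genotype, robust quasi-likelihood, experiment and genotype as terms), with Benjamini-Hochberg adjustment over all 14418 genes tested and a threshold of 0.05. An interaction fit and a fit of 4 groups gave the contrasts of experiments. CPM used TMM-scaled library sizes, and log2 CPM a prior count of 2. SE is the log2 fold change over the square root of F. Depth of 33977799 to 41584540 counts sets the counting error. The fits were tested on simulated data. Positions came from GENCODE M21 (GRCm38) for 11954 tested genes, by symbol or older symbol. Mkl1 is Mrtfa there. Count ratios have exact and shares Wilson 95% intervals, which cover counting error only.

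Named were the 10 genes and Mkl1, the nearest tested gene to either side, the 3 genes of highest r for Kif21a and Rpl3-ps1 and 1 for the others, the 2 other genes of smallest p in each list, and all genes past the threshold within 10 Mb. The remaining genes past the threshold in a list were named after their values were seen. The list of MAF and CNC factors is not reported here. Alternatives were DESeq2 1.42.0, limma-voom (limma 3.58.1), upper-quartile scaling, 2 filters, each experiment alone, no experiment term, the mean over 4 groups, windows of 5 and 20 Mb and each library left out.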

Additional observations from a re-analysis of the deposited data

Results flagged for a closer look

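The genotype difference differed between experiments, by the interaction of genotype and experiment in edgeR (adjusted over 14418 genes, 41.6% of which were past the threshold), for 3 of the genes described. For Rpl3 the log2 fold change in experiment 2 minus that in experiment 1 was 0.59 (SE 0.15, adjusted p = 0.0165): KO was below WT in both libraries of experiment 1 and overlapped WT in experiment 2. This is not particular to Rpl3, which is among the 39 of 46 large subunit ribosomal proteins with an interaction past the threshold. For Maff the interaction was -1.53 (SE 0.35, adjusted p = 0.0121), with WT at 3.61 and 4.52 CPM in experiment 1 and 11.8 and 13.8 CPM in experiment 2. Without WT library 1 or KO library 6, neither Rpl3 nor Maff passed the threshold. For Mkl1 it was -0.79 (SE 0.22, adjusted p = 0.0238), with KO at 19.5 and 20.9 CPM in experiment 1 and 14.6 and 10.4 CPM in experiment 2. No library of any described gene stood apart from its group of 4 by Dixon's criterion.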

How the results depend on the processing

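No paired analysis was possible because the WT libraries are numbered 1 to 4 and the KO libraries 5 to 8, so the groups share no number. Of the 10 genes, 9 were past the threshold with all libraries, 5 to 9 when 1 library was left out (5 without WT library 1 or KO library 5), and 2, Kif21a and Rpl3-ps1, with no experiment term. With all libraries 7.12% of all genes tested were past it. That share is not given here for the other settings, so the counts do not show whether the drop is particular to these genes. Kif21a and Rpl3-ps1 kept their call in all 16 alternatives that tested them, and Slc45a4, Csnk1e and Tomm22 lost it in 1 of 17. A minimum of 10 counts in every library removed Kif21a, Rpl3-ps1 and Dennd3 before testing. Within 10 Mb of Mkl1 (Mkl1 left out), 45 genes were past the threshold with DESeq2, 1 with no experiment term, 123 in experiment 1 alone, 39 in experiment 2 alone, 74 as the mean over 4 groups and 10 to 26 with 1 library left out. Over the lists the numbers were 2 with no experiment term, 151 in experiment 1 alone, 59 in experiment 2 alone, 82 as the mean over 4 groups and 13 to 37 with 1 library left out. Among all genes tested, 55.1% were past the threshold in experiment 1 alone and 15.8% in experiment 2 alone. For the other settings no such share is given here, so the numbers do not set the region or the lists apart from all genes. The number of the 10 genes past the threshold with 1 library left out was 0 to 3 for the interaction, 2 to 4 between experiments in WT and 3 to 5 in KO. Mkl1 passed the threshold with DESeq2 (-0.78, adjusted p = 0.00296), with no filter (-0.79, 0.0380), in experiment 1 (-0.39, 0.00381) and 2 alone (-1.17, 0.0218) and as the mean over 4 groups (-0.78, 0.00233, edgeR unless named), and ranged from -0.87 to -0.60 with 1 library left out. Reversed signs, none past the threshold, were Rpl3 in experiment 2 alone (0.12), the WT difference between experiments of Kif21a without WT library 2 (0.41, range with 1 library left out -0.85 to 0.41) and of Rpl3-ps1 without WT library 1 (0.84, range -2.25 to 0.84), the interaction of Rpl3-ps1 without WT library 1 (-0.54, range -0.54 to 2.55) and of Dennd3 without WT library 4 (-0.19, range -0.19 to 2.39), and the KO difference of Maff without KO library 5 (-0.12) or 7 (-0.11, range -0.12 to 0.44) and of Tomm22 with upper-quartile scaling (-0.0089). The cause was not tested. WT counts of 1 to 12 limit the precision of every ratio for Kif21a and Rpl3-ps1.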

Other observations

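Among all 53735 genes, 3 had at least 20 counts in every KO library and at least 8 times the highest WT count in each, a criterion set after the values were seen: Kif21a, Rpl3-ps1 and Prm1. None met the reverse criterion. Prm1 encodes protamine 1, which packs DNA in sperm, and lies at chr16:10796326-10805839 on the minus strand (GRCm38). It had 0 counts in all 4 WT libraries and 47, 64, 31 and 36 counts in KO libraries 5 to 8, or 1.12 ± 0.388 CPM (SD, n = 4). Against a floor of 3 counts per WT library (0.0826 CPM), the mean KO level was at least 13.6-fold higher. Gene-level counts do not show which part of Prm1 the reads cover or whether they come from this locus, and this was not tested.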
